A study of Mus musculus with 3 samples.

Results

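The lateral entorhinal area (ENTl) was represented by 77 of the 8549 capture spots in 3 coronal hemisphere sections of mouse brain. Its members were chosen by the deposited area label ENTl. There were 16 in the section of a control mouse (CON), 31 in that of a resilient mouse (RES) and 30 in that of a susceptible mouse (SUS). The mice were male C57BL/6J animals, 8 weeks old by the labels, with 1 section for each condition. The RES and SUS animals were attacked by CD-1 mice over 10 days of chronic social defeat stress (CSDS). RES and SUS were told apart by a social interaction ratio above or below 1. Brains were taken 1.5 h after the last defeat. The study's text places the interaction test up to a day after that defeat, so its order relative to tissue collection is unclear. The CON mouse had met a non-aggressive C57BL/6 mouse each day in place of an attacker. Sections of 10 μm were placed on Visium slides, on which a spot takes up mRNA from the overlying tissue, usually from several cells or parts of cells. Molecules were counted by their unique molecular identifiers (UMIs).

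The entorhinal cortex is the main gateway between the neocortex and the hippocampus. Cells of its superficial layers give rise to the perforant path, which ends in the dentate gyrus and the hippocampal fields, and its deep layers return hippocampal output to the cortex. The lateral part is known for strong input from the perirhinal cortex, the olfactory areas and the amygdala, and for its part in odour and object memory. Its surface layer holds few neuronal cell bodies, while the layers beneath it are dense with them.

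Labels were drawn from stained sections, the Allen Brain Atlas and marker genes. Counts per gene were not analysed here, so the label could be checked against its place in the section and not against marker genes. ENTl formed 1 connected patch in each section, an oblique band in RES and SUS and a block in CON. The temporal area (TEP) lay on one side and the olfactory area (OLF) on the other. At the inner end of ENTl lay spots labelled CTXsp, taken here as the study's amygdala (AMY). That label can take in cortical subplate outside the amygdala, and which structure lay next to ENTl was not checked. In the study's legend TEP itself takes in temporal association, perirhinal and also entorhinal cortex, so part of the entorhinal cortex may carry that label.

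Each spot has up to 6 adjacent places on the hexagonal grid. Of the 436 listed neighbours of ENTl spots, 74.3% were ENTl themselves (exact Clopper-Pearson 95% interval 69.9 to 78.4), 11.0% were TEP (8.23 to 14.3), 8.26% were OLF (5.85 to 11.2) and 6.42% were AMY (4.31 to 9.15). No neighbour carried any other label. The share of ENTl neighbours was 75% in CON, 75.7% in RES and 72.5% in SUS, with overlapping intervals. ENTl spots whose listed neighbours were all ENTl numbered 6 in CON, 11 in RES and 8 in SUS. An ENTl neighbour was counted from either side, which makes these intervals too narrow.

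The part of ENTl that lay on the slide differed between the sections. In CON it covered 4 rows of the grid with 4 spots each and ended at the edge of the grid, where 4 of its 16 spots took the last place of their row. In RES it covered 8 rows with 1 to 6 spots and also reached the edge of the grid, with 5 of 31 spots at the last place of a row. In SUS it covered 8 rows with 1 to 7 spots, none of them at the last place of a row, and 4 of its spots touched places outside the tissue. Counted as steps on the grid from the nearest AMY spot, ENTl extended 4 steps outwards in CON, 6 in RES and 8 in SUS. The nearest ENTl spot to a place off tissue was 11 steps away in CON, 3 in RES and 1 in SUS, counting grid places of the slide and not a tissue border beyond it. The band thus ran to the border of the tissue in SUS, to within 3 steps of it in RES, and stopped at the edge of the capture area in CON.

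**Figure D1:**
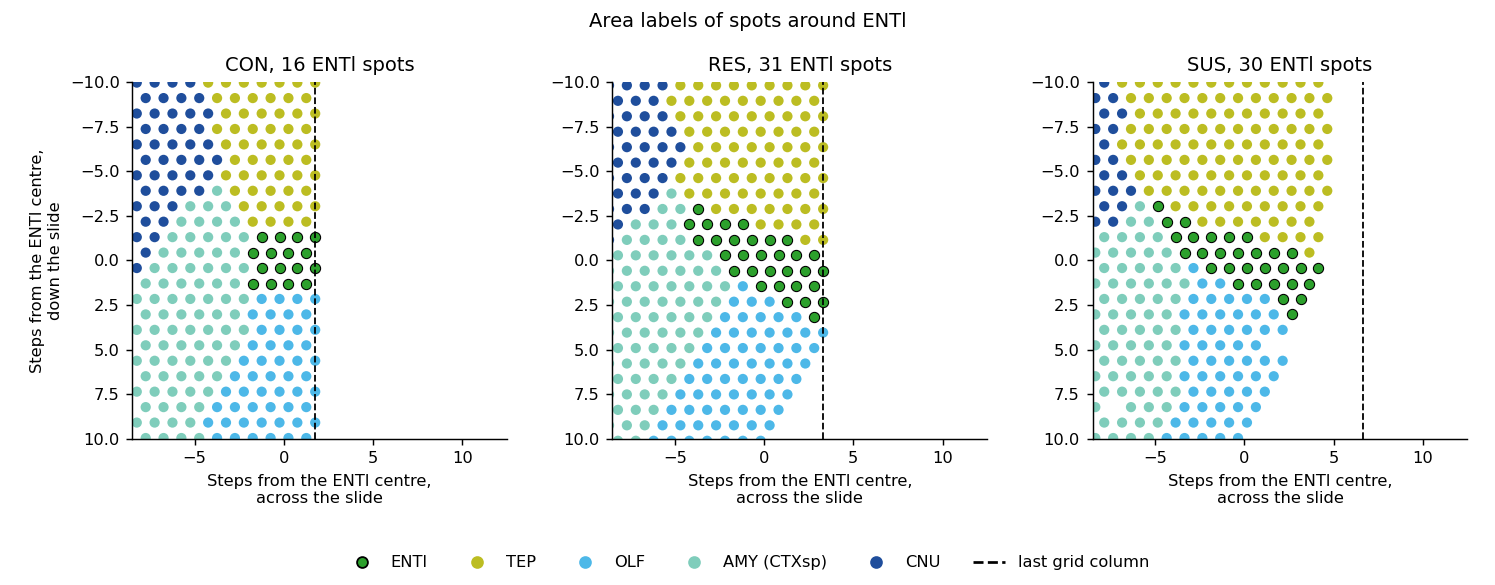
Area labels of the spots around ENTl in each section, in grid steps across and down the slide from the centre of the ENTl spots (green with black outline), with the last grid column of the slide as a dashed line. ENTl stops at that line in CON (16 spots) and RES (31 spots), and tapers to the tissue border before it in SUS (30 spots).

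ENTl made up 0.555% of the CON spots (exact Clopper-Pearson 95% interval 0.318 to 0.900), 1.10% of the RES spots (0.746 to 1.55) and 1.06% of the SUS spots (0.714 to 1.50). Its UMIs summed to 235974 in CON (exact Poisson 95% interval 235022 to 236929), to 334484 in RES (333351 to 335620), and to 301026 in SUS (299951 to 302104). These were 0.629%, 1.07% and 0.861% of all UMIs of the CON, RES and SUS section. These intervals cover counting error only. With 1 section per condition no test between conditions could be made, and each ratio below compares those sections and not the conditions. Whole sections summed to 31196847 to 37536349 UMIs, with the most in CON and the fewest in RES.

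UMIs per ENTl spot were highest in the CON section. The CON spots ranged from 8083 to 23175 UMIs with a median of 14214 (order-statistic 95% interval 12079 to 16957). The RES spots ranged from 4794 to 24113 with a median of 9030 (7262 to 12166), and the SUS spots from 2532 to 23087 with a median of 10054 (7123 to 11704). The ranges of the 3 sections overlap widely and reach nearly the same top, while the interval of CON lies above that of SUS and overlaps narrowly with that of RES. Divided by the CON median, the RES median was 0.635 (interval 0.428 to 1.01) and the SUS median 0.707 (0.420 to 0.969). The bounds of these ratios and of those below are quotients of opposite bounds of the medians, and not 95% intervals of the ratio. Over all areas the same ratios were 0.779 and 0.848, so that relative to its own section ENTl had 0.816 and 0.834 times the CON level. Fewer cells under a spot and less captured RNA per cell cannot be told apart in such data.

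The spread within a section was larger than the distance between sections. From the lowest to the highest spot UMIs differed 2.87-fold in CON, 5.03-fold in RES and 9.12-fold in SUS. Adjacent ENTl spots differed by a median of 1.34-fold in CON (33 pairs), 1.47-fold in RES (67 pairs) and 1.36-fold in SUS (62 pairs). The same value lay between 1.27 and 1.32 in TEP, between 1.30 and 1.37 in OLF and between 1.19 and 1.26 in AMY, so that ENTl had the highest of the 4 values in CON and RES and came next after OLF in SUS.

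Genes detected per spot, by 1 UMI or more, followed the UMIs. In CON it ranged from 3608 to 6261 genes per spot with a median of 5009.5 (interval 4568 to 5403), in RES from 2521 to 6400 with a median of 3863 (3384 to 4589), and in SUS from 1620 to 6382 with a median of 4154.5 (3455 to 4469). The CON interval lies above that of SUS and meets that of RES by a few genes. Across the spots of a section Spearman's rho between UMIs and genes was 0.974 in CON (n = 16), 0.989 in RES (n = 31) and 0.997 in SUS (n = 30). The spots of a section share a library, and genes are counted from the same UMIs, so these values are a description.

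**Figure D2:**
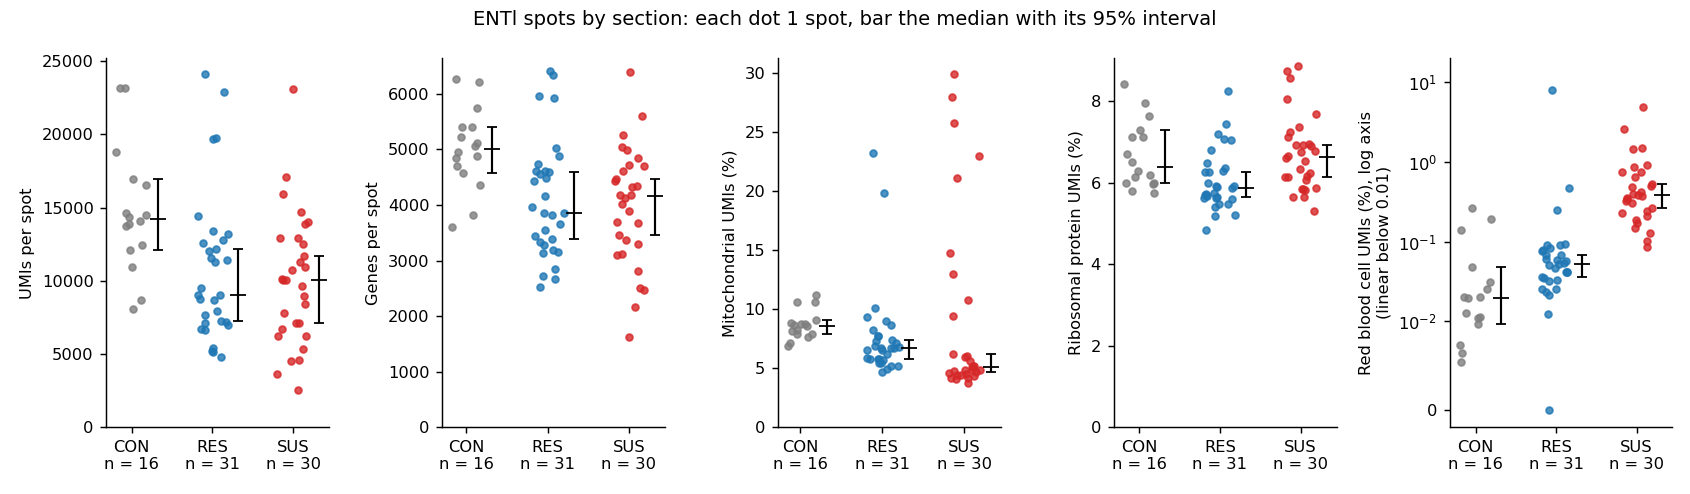
UMIs, genes and the percentages of mitochondrial, ribosomal protein and red blood cell UMIs in each ENTl spot (dots) of the CON, RES and SUS sections, with the median and its 95% order-statistic interval (bars). The red blood cell axis is logarithmic above 0.01%. Medians fell from 8.63% to 5.15% for mitochondrial UMIs between CON and SUS, and more than 10% was found in 3 of 16 CON, 3 of 31 RES and 8 of 30 SUS spots.

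Mitochondrial genes encode subunits of the respiratory chain, and their share of UMIs is commonly read as a mark of cell energy use or of tissue quality. In CON the ENTl spots held 6.90% to 11.2% mitochondrial UMIs, with a median of 8.63% (interval 7.94 to 9.11). In RES they held 4.73% to 23.3% with a median of 6.72% (5.83 to 7.44), and in SUS 3.76% to 30.0% with a median of 5.15% (4.73 to 6.22). The medians were lowest in SUS, and the intervals of CON and RES and of CON and SUS do not overlap, whereas the highest single values were found in SUS. Relative to CON, the median was 0.779 times as high in RES (interval 0.640 to 0.938) and 0.597 times as high in SUS (0.519 to 0.784), against 0.920 and 0.767 over whole sections. With means in place of medians the SUS ratio turned to 1.07. More than 10% was found in 3 of 16 CON spots (18.8%, interval 4.05 to 45.6), 3 of 31 RES spots (9.68%, 2.04 to 25.8) and 8 of 30 SUS spots (26.7%, 12.3 to 45.9). Of all spots the share above 10% was 55.5% for CON, 45.4% for RES and 30.5% for SUS. The ENTl share was thus below that of its section in CON and RES, while its interval includes that of the section in SUS. Among the 17 areas ENTl had the lowest mitochondrial median in SUS and came next after TEP in RES, while in CON 5 areas lay below it. In SUS its 5.15% was close to the 5.29% of TEP, with overlapping intervals, and by means ENTl, with 9.27%, lay above TEP with 7.18%, AMY with 5.89% and the whole section with 8.96%, and below OLF with 11.1%.

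The highest values lay at the outer end of the area. Within 2 steps of a place off tissue were 8 ENTl spots, all in SUS, and these held 10.8% to 30.0% mitochondrial UMIs with a median of 22.1%. The other 22 SUS spots held 3.76% to 9.42% with a median of 4.82% (interval 4.46 to 5.23), so the groups do not overlap. The outer spots were also shallow, with 2532 to 7104 UMIs and a median of 4983, against 6743 to 23087 and a median of 11144.5 (9649 to 13867) in the rest. Ribosomal protein genes took 6.75% to 8.85% of their UMIs, median 7.86%, against 5.30% to 7.24%, median 6.20%. The limit of 2 steps was set after the values were seen, and the median mitochondrial percentage was 26.9% with a limit of 1 step and 14.8% with 3 steps.

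In RES the highest mitochondrial values, 23.3% and 19.8%, belonged to 2 spots at the last place of their row, 4 and 3 steps from a place off tissue and 6 steps from AMY. They had 5418 and 5167 UMIs. The next highest spot, with 10.2%, lay at the other end of the band, 1 step from AMY, and had the fewest UMIs of the RES spots, 4794. In CON, where no ENTl spot lay nearer than 11 steps to a place off tissue, no spot exceeded 11.2%.

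Outer spots of the adjoining areas had high values too. In the SUS section the spots within 2 steps of a place off tissue had a median of 13.8% in TEP (23 spots, interval 11.2 to 17.0) and 20.7% in OLF (80 spots, 15.9 to 26.0). Further in, the medians were 4.99% in TEP (91 spots) and 5.41% in OLF (136 spots), near the 4.82% of ENTl. In OLF of CON and RES, where the border lay on the slide, the outer spots had medians of 13.3% (53 spots) and 22.6% (64 spots). Outer spots with a high mitochondrial percentage were thus found in all 3 of these areas in SUS, and in OLF of every section, while TEP had no spot within 2 steps of off-tissue places in CON or RES.

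**Figure D3:**
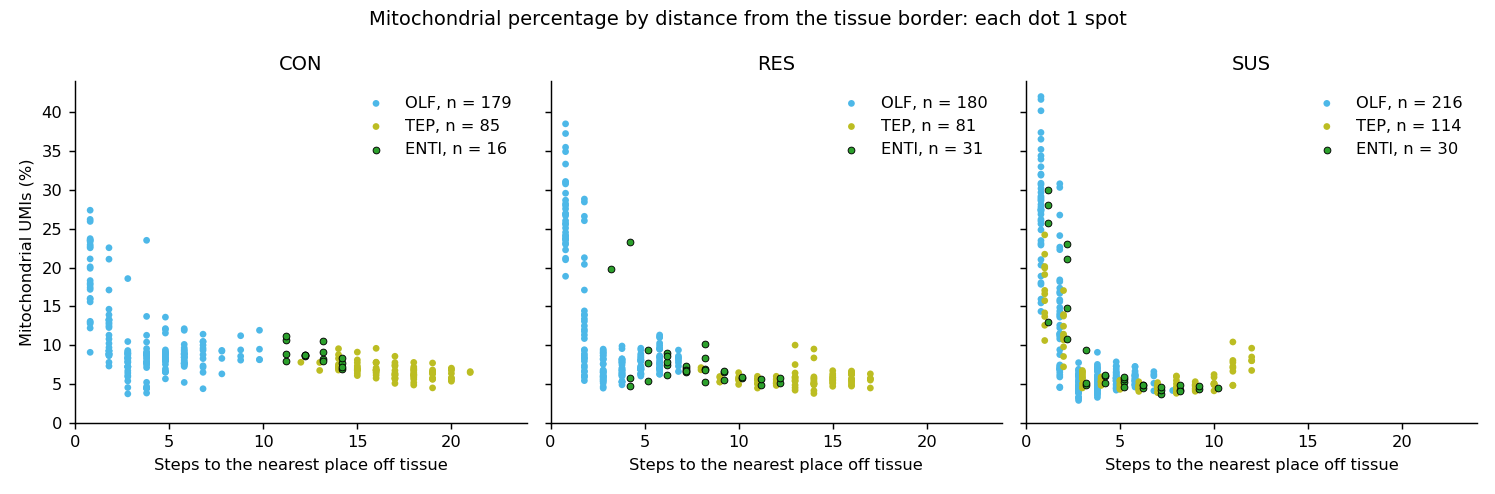
Mitochondrial percentage of UMIs in each spot of ENTl (outlined), TEP and OLF against the number of grid steps to the nearest place off tissue, by section. Values above 15% in ENTl occur at 1 and 2 steps in SUS and at 3 and 4 steps in RES, and the CON spots, all 11 or more steps away, reach 11.2%.

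The inner part of the area allowed a comparison over the same width in every section. Within 4 steps of AMY lay all 16 CON spots, 22 RES spots and 16 SUS spots. Their median mitochondrial percentage was 8.63% in CON. It was 6.56% in RES (interval 5.49 to 7.44), and SUS had the lowest, 4.60% (4.22 to 4.87). The highest SUS spot, at 6.22%, was below the lowest CON spot, at 6.90%, and the RES spots, from 4.73% to 10.2%, overlapped both. Their UMIs had medians of 14214 in CON, 9028.5 in RES (7109 to 12609) and 11511.5 in SUS (8934 to 13867), and these 3 intervals overlap. Over whole sections the mitochondrial median fell in the same order, from 10.5% in CON to 9.64% in RES and 8.03% in SUS. The section, the animal and the condition cannot be told apart.

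Ribosomal protein genes encode the protein parts of the ribosome and make up a large and steady share of mRNA in most cells. ENTl had the lowest median percentage of ribosomal protein UMIs of the 17 areas in CON and in RES, and in SUS OLF alone lay below it. In CON its spots held 5.74% to 8.43% with a median of 6.39% (interval 5.98 to 7.29), in RES 4.84% to 8.24% with a median of 5.87% (5.65 to 6.27), and in SUS 5.30% to 8.85% with a median of 6.62% (6.14 to 6.92). Whole sections had medians of 7.50%, 7.30% and 7.47%, and the highest area was FB, the fibre tracts, with 10.9%, 11.2% and 12.0%, in the order CON, RES, SUS. The area next above ENTl was OLF in CON, with 6.55%, whose interval lies within that of ENTl. Without spots that lack a listed neighbour, 3 areas lay below ENTl in CON and 2 in SUS. Relative to CON the percentage was 0.919 times as high in RES (0.774 to 1.05) and 1.04 times as high in SUS (0.842 to 1.16), and these intervals include 1.

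This percentage was not even across the band. In CON the 4 spots at 1 step from AMY held 7.11% to 8.43%, median 7.46%, and the 4 spots at 3 steps 5.74% to 6.18%, median 5.97%. In RES the median went from 7.11% at 1 step (6 spots) to 6.13% at 2 steps (6 spots), 5.61% at 4 steps (5 spots), 5.72% at 5 steps (5 spots) and 5.80% at 6 steps (4 spots). The median was thus highest at 1 step in both sections, and the ranges at 1 and 3 steps do not overlap in either, while single spots at 2 steps in CON, up to 7.96%, and at 6 steps in RES, up to 7.07%, were within the range of those at 1 step. In SUS the medians were 6.44% at 1 step, 5.74% at 3 steps and 6.91% at 5 steps (4 spots each), and 8.06% at 7 steps (5 spots), so that the lowest median lay at 3 steps and the highest values at the outer end. Spearman's rho with the steps from AMY was −0.788 in CON (n = 16), −0.616 in RES (n = 31) and 0.649 in SUS (n = 30). Within the first 4 steps it was −0.907 in RES (n = 22) and −0.194 in SUS (n = 16). The points are spots of 1 section each, and deeper spots had lower percentages, with rho to UMIs of −0.685, −0.678 and −0.676 in CON, RES and SUS. The SUS value rested largely on the 8 spots within 2 steps of off-tissue places and was −0.329 without them (n = 22) and −0.226 within the first 4 steps (n = 16), where RES had −0.641 (n = 22). The part of depth in the course across the band was not tested.

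UMIs took another course across the band. In CON the median at 1 step from AMY was 12353 UMIs and at 3 steps 18597, and in RES it was 6883 at 1 step, 14422 at 4 steps, 11320 at 5 steps and 8500 at 6 steps. In SUS it stayed between 9952 and 12677 UMIs over the first 5 steps and was 4540 at 7 steps. The 4 RES spots with the fewest UMIs lay at both ends of the band, 4794 and 5226 UMIs at 1 step and 5167 and 5418 UMIs at 6 steps, while in SUS the lowest medians lay at the outer end. With 1 to 6 spots per step, the ranges of neighbouring steps overlap in every section.

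**Figure D4:**
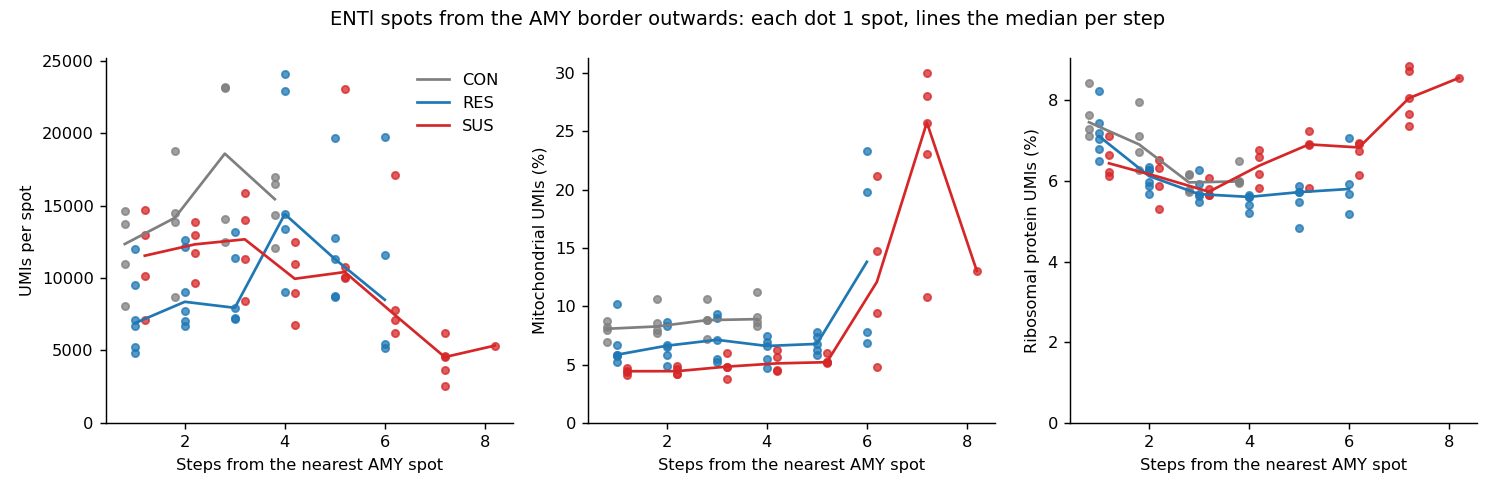
UMIs, mitochondrial percentage and ribosomal protein percentage of each ENTl spot (dots) against the grid steps from the nearest AMY spot, with the median per step (lines) for CON, RES and SUS. The mitochondrial median stays between 4.42% and 5.20% over the first 5 steps of SUS and is 25.8% at 7 steps, and the ribosomal protein median falls from 7.46% to 5.97% between steps 1 and 3 in CON.

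Red blood cell genes, mainly those of haemoglobin, mark blood held in the vessels of the tissue or spread over it. In CON the ENTl spots held 0.00535% to 0.263% of such UMIs, with a median of 0.0198% (interval 0.00968 to 0.0478). The RES spots held 0% to 7.87%, median 0.0520% (0.0359 to 0.0679), and the SUS spots 0.0857% to 4.83%, median 0.379% (0.266 to 0.533). The SUS interval lies above the other two, which overlap. Whole sections had medians of 0.0154%, 0.0714% and 0.281%, so after division by the section's median the ratio of ENTl to CON was 0.564 in RES and 1.04 in SUS, in place of 2.62 and 19.1. More than 1% was found in 0 of 16 CON spots (interval 0 to 20.6%), 1 of 31 RES spots (3.23%, 0.0816 to 16.7) and 4 of 30 SUS spots (13.3%, 3.76 to 30.7). In whole sections the share above 1% was 1.70%, 4.46% and 17.9%. The RES spot with 7.87% lay 1 step from AMY and had 9489 UMIs, and the next highest RES spot held 0.465%.

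ENTl was compared with TEP, OLF and AMY within each section, and the differences were tested over the 3 sections. The test was an exact two-sided sign-flip permutation test, for which 3 sections allow no p below 0.25. None of the 15 comparisons could therefore pass a threshold of 0.05, and after adjustment over the 15 the lowest p was 0.75. What can be given is the size of each difference and the number of sections that show it. For red blood cell UMIs the differences from TEP were −0.00297, −0.00135 and 0.0976 percentage points in CON, RES and SUS. From OLF they were 0.00771, −0.0513 and 0.118 points, and from AMY 0.00132, −0.0181 and 0.150 points. The red blood cell intervals lie apart for OLF in RES and for AMY in SUS alone.

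Over all spots, AMY differed from ENTl in the same direction in all 3 sections for 3 measures, of which the ribosomal protein percentage alone kept that direction against the AMY spots within 3 steps of ENTl. The median UMIs of ENTl were 1.10 times those of AMY in CON (14214 against 12930), 1.11 times in RES (9030 against 8159) and 1.35 times in SUS (10054 against 7471), with a mean log2 ratio of 0.24 (exact permutation p = 0.25). Genes per spot were 1.04, 1.05 and 1.19 times those of AMY. The ribosomal protein percentage was lower in ENTl, with differences of −0.687, −1.10 and −0.329 percentage points from the 7.08%, 6.97% and 6.95% of AMY (exact permutation p = 0.25). Only in RES do the intervals of this percentage in ENTl and AMY lie apart, and in SUS they meet narrowly. Among spots of like depth, within 20% of the UMIs of each ENTl spot, the difference was −0.712, −1.06 and −0.260 points. Against the AMY spots within 3 steps of ENTl it was −1.32, −1.70 and −0.516 points. Against the same spots the log2 ratio was 0.30, 0.20 and −0.18 for UMIs and 0.14, 0.11 and −0.09 for genes, so that ENTl was lower than the adjoining AMY in SUS by both. The intervals of UMIs in ENTl and AMY overlap in all 3 sections. The mitochondrial percentage of ENTl differed from that of AMY by 0.363, −1.24 and −0.672 points (exact permutation p = 0.5). Its intervals lie apart in RES alone. Against the AMY spots within 3 steps the mitochondrial differences were 2.18, 0.521 and −0.113 points, with intervals apart in CON alone.

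In TEP the median UMIs were 15829 for CON, 10577 for RES and 9580.5 for SUS. ENTl had 0.898, 0.854 and 1.05 times as many, with overlapping intervals. The ribosomal protein percentage was lower in ENTl in 3 of 3 sections, with differences of −0.663, −0.679 and −0.322 points (mean −0.555, exact permutation p = 0.25) from the 7.05%, 6.55% and 6.94% of TEP. The intervals lie apart in RES alone. In CON this difference did not hold next to ENTl, where the TEP spots within 3 steps had a median of 6.22%. The mitochondrial percentage was higher in ENTl by 1.89 points in CON and 1.12 points in RES, with intervals that do not overlap, and differed by −0.142 points in SUS (exact permutation p = 0.5). Against the TEP spots within 3 steps it was higher in 3 of 3 sections, by 2.50, 1.26 and 0.297 points (exact permutation p = 0.25).

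OLF differed from ENTl mainly in the RES section, where ENTl had 1.63 times its UMIs (9030 against 5542) and 1.34 times its genes. In CON ENTl had 0.907 times and in SUS 1.13 times the UMIs of OLF, with overlapping intervals. The mitochondrial percentage was lower in ENTl in 3 of 3 sections, with differences of −0.263, −1.42 and −0.978 points (exact permutation p = 0.25) from the 8.89%, 8.14% and 6.13% of OLF. Of these, RES alone had intervals that lie apart, and among spots of like depth its difference turned to 0.345 points, with −0.614 in CON and −0.770 in SUS. OLF has 53, 64 and 80 spots within 2 steps of off-tissue places, against 0, 0 and 8 of ENTl, and with only spots more than 2 steps from it the differences were 0.266 points in CON, −0.554 in RES and −0.585 in SUS. Against the OLF spots within 3 steps of ENTl the mitochondrial differences were −0.275, −1.31 and −1.51 points (exact permutation p = 0.25), with overlapping intervals. The ribosomal protein percentage was lower in ENTl in CON and RES and higher in SUS, by 0.371 points.

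**Figure D5:**
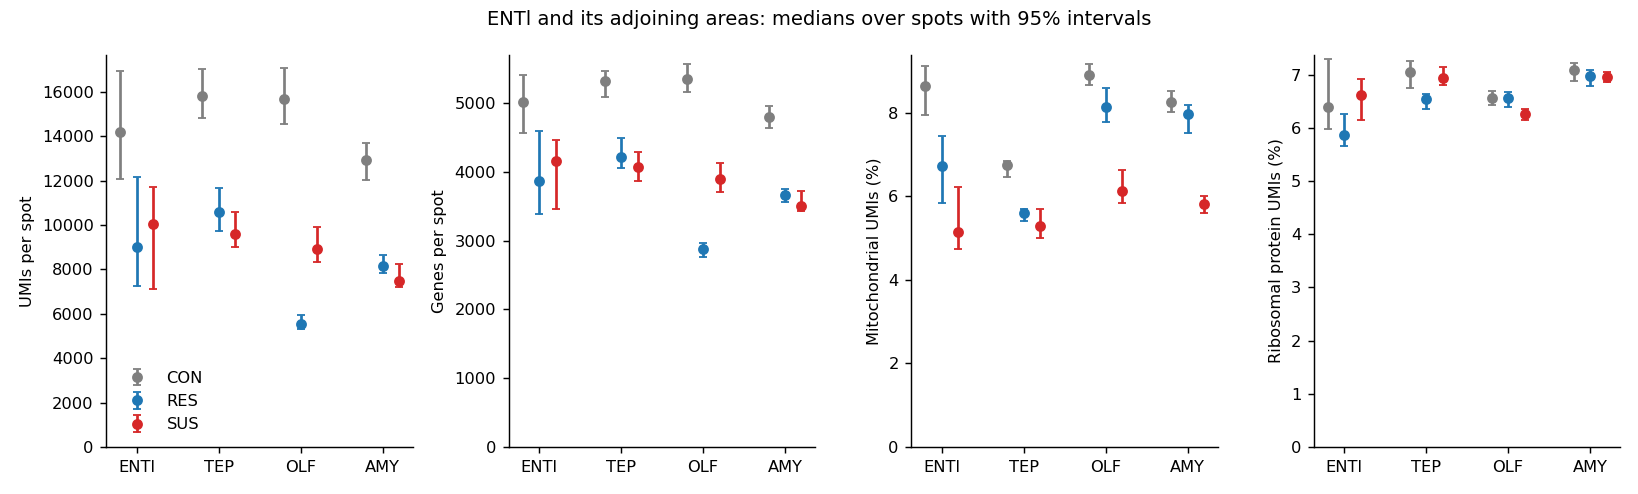
Median UMIs, genes, mitochondrial percentage and ribosomal protein percentage per spot, with 95% order-statistic intervals, in ENTl and the adjoining TEP, OLF and AMY of the CON, RES and SUS sections. Over all spots ENTl lies above AMY in UMIs and genes and below TEP and AMY in ribosomal protein percentage in all 3 sections. Against only the spots within 3 steps, which are not drawn, ENTl was below AMY in UMIs and genes in SUS. Against such TEP spots it was higher in ribosomal protein percentage in CON.

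The change from CON was set beside that of the adjoining areas. For UMIs, the ratio of RES to CON was 0.635 in ENTl, 0.668 in TEP, 0.631 in AMY and 0.354 in OLF. That of SUS to CON was 0.707 in ENTl, 0.605 in TEP, 0.578 in AMY and 0.568 in OLF. By these medians ENTl was the least lowered of the 4 areas in SUS, and by means OLF was, with 0.699 against 0.680 in ENTl. The mitochondrial ratio in SUS was 0.597 in ENTl, 0.786 in TEP, 0.689 in OLF and 0.705 in AMY, the lowest in ENTl, and in RES 0.779, 0.831, 0.915 and 0.963. This order depends on the use of medians, since with means the SUS ratio was 1.07 in ENTl, 1.06 in TEP, 1.05 in OLF and 0.714 in AMY, and the RES ratio 0.887, 0.842, 1.13 and 0.918. All of these ratios share the CON section and were not tested against each other.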

How the data were processed

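Visium libraries of 3 coronal sections, 1 for each condition, were used. By the study's methods, ST Pipeline processed the reads, mm10 was the genome, and the authors removed genes with fewer than 10 reads or in fewer than 2 spots and spots below 200 UMIs in Seurat, although 1 retained spot, outside ENTl, has 188. The submitters' processing notes also name Space Ranger 1.0.0. The deposited table gives counts of UMIs and genes per spot, without normalization, and percentages of mitochondrial, ribosomal protein and red blood cell UMIs, whose gene lists and total the sources used here do not give. Per gene, no count was used, and no gene is named with a value. All 77 ENTl spots had at least 1000 UMIs and lay under tissue.

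Spots were joined by section and barcode to the position lists, which hold 4992 places with the same barcode at each place, so 2321 retained barcodes occur in all 3 sections by design. Steps are distances on the hexagonal grid. Medians have 95% order-statistic intervals and shares exact binomial ones, and neither covers differences between animals. Areas were compared by exact sign-flip permutation over sections with Benjamini-Hochberg adjustment over 15 tests. The median interval was tested on simulated data, the distance against a walk on the grid, and the permutation test on fixed examples. Alternatives were means, subsets of spots, other neighbourhoods, matched UMIs and sections left out. The area and the comparisons were chosen with earlier results of these data known, and the limits of 10% mitochondrial and 1% red blood cell UMIs, 2 steps from off-tissue places and 4 steps from AMY after the values were seen. Software was Python 3.11.15 with scipy 1.17.1, pandas 2.3.3, matplotlib 3.10.9 and numpy 2.4.6.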

Additional observations from a re-analysis of the deposited data

How the results depend on the processing

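Depth was at least 2532 UMIs in every ENTl spot, and a minimum of 1000 UMIs left all values of ENTl as they were. Each condition has 1 section, and the sections hold different parts of ENTl. Of the alternative medians of ENTl, 82 stayed within the interval and 8 did not. With means, the red blood cell percentage moved to 0.0514% for CON, 0.322% for RES and 0.680% for SUS, and the mitochondrial percentage to 7.72% in RES and 9.27% in SUS. Spots whose listed neighbours were all ENTl gave 5.61% ribosomal protein UMIs in RES and 7.72% mitochondrial UMIs in SUS, and spots within 4 steps of AMY, a choice made after seeing the data, 4.60% mitochondrial UMIs in SUS.

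Of the alternative ratios to CON, 54 kept their direction and interval. Division by the section's median reversed the red blood cell ratio in RES to 0.564 and moved that in SUS to 1.04. Means reversed the mitochondrial ratio in SUS to 1.07. The ribosomal protein ratio in SUS reversed to 0.930 without edge spots and, for choices made after seeing the data, to 0.962 within 4 steps of AMY and 0.970 more than 2 steps from off-tissue places.

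Of the alternative differences from adjoining areas, 14 changed the sign of the mean over sections and 118 kept it. The mean kept its sign under every alternative for the ribosomal protein difference from TEP and AMY and the UMI difference from AMY. It also did so for the gene difference from AMY, the mitochondrial difference from TEP and OLF, and the UMI difference from OLF. With adjoining spots within 3 steps, the mean log2 ratio to TEP reversed to 0.00 in UMIs (0.0010) and genes (0.0031), the ribosomal protein difference from OLF to 0.0994 points and the mitochondrial difference from AMY to 0.864 points. Means reversed the red blood cell differences from TEP and OLF to −0.0576 and −0.0978 points and the mitochondrial difference from AMY to 1.33 points. The ribosomal protein difference from OLF also reversed without edge spots (0.0633) and at matched UMIs (0.0043). With 1 section left out it ranged from −0.428 without SUS to 0.104 points without RES, and the log2 gene ratio to OLF from −0.00082 without RES to 0.26 without CON. The red blood cell difference ranged from −0.0022 to 0.0481 points for TEP, −0.0218 to 0.0630 for OLF and −0.0084 to 0.0754 for AMY, with each lowest value without SUS. The cause of these reversals was not tested.

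With the 18 places within 2 steps as neighbours, the shares moved to 60.7% ENTl, 16.8% TEP, 12.2% OLF and 10.1% AMY. Spearman's rho with the steps from AMY reversed for mitochondrial UMIs in RES within the first 4 steps (−0.0029), for ribosomal protein UMIs in SUS within the first 4 steps (−0.194) and for red blood cell UMIs in SUS without the outer 2 steps (−0.0619). No distance from the tissue border was held by all 3 sections, so the planned restriction to shared distances was not run, and shares of expression clusters were not run because no such labels were used here. No paired analysis was possible because, between conditions, there is 1 section each and the labels give no replicate numbers that could pair them, and the comparisons of areas were already paired within sections.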

Other observations

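The position lists allow a look at ENTl spots that occupied the same place of the slide in different sections. Between CON and RES 12 places were ENTl in both, and at 10 of them the CON spot had more UMIs, with a median RES to CON ratio of 0.744. At 7 of the 12 the CON spot had the higher mitochondrial percentage. RES and SUS shared 13 places, and CON and SUS shared 0. A shared place on the slide is not a shared place in the tissue.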
